A study of Arabidopsis thaliana with 6 samples.

Results

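The 10 genes described here form the core of the circadian clock of Arabidopsis thaliana: CCA1, LHY, PRR9, PRR7, PRR5, TOC1, GI, ELF3, ELF4 and LUX. They are 10 of the 33602 gene models counted and were chosen by name, with their read pair counts in these libraries known, so all values below are descriptions and carry no test. The pilot experiment sequenced 6 libraries made with decreasing amounts of RNA, 5 ng and then 100, 75, 50, 25 and 10 pg, with 1 library per amount, and values given as a series of 6 follow this order. According to the study they are dilutions of a same RNA from whole cotyledons of embryos, pooled from microdissected sections of several siliques and plants, while the labels give the tissue as seed. All libraries share the wild type genotype, Boyes stage 6.30, no treatment and, by the labels, a greenhouse with 16 h of light and 8 h of dark at 18 to 22 °C. The study describes a shorter light period. The time of day at harvest, on which the level of a clock gene depends, is not given in the sources used here.

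The plant clock is a network of repressors that act on each other in the course of a day. CCA1 and LHY are MYB transcription factors that peak around dawn and repress evening genes through a promoter sequence called the evening element. The PRR genes then follow each other through the day and repress CCA1 and LHY, TOC1 does so in the evening, and ELF3, ELF4 and LUX form the evening complex, a repressor that acts at night. In seeds and seedlings the clock is known to time germination, growth and the use of reserves.

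The libraries held between 22403342 and 51130296 counted read pairs, and there were no replicates, so the spread between replicates is unknown. The 5 ng library stood apart. Its reads of the 7 storage protein genes of seeds came to 584209 CPM (counts scaled to the library total), beside 0.0343 to 17.5 CPM in the smaller amounts, while the 4 embryo markers (LEC1, FUS3, ABI3, ATML1) were detected in every library, with sums of 74.2 CPM at 5 ng and 343 to 534 CPM below. Of the 4 endosperm markers 2 or 3 were detected in each library, with a sum of 795 CPM at 5 ng, 1.54 to 37.0 CPM in the others and FWA at 0 in all 6. Of the 4 seed coat markers 1 to 3 were detected, with 56.1 CPM at 5 ng, 16.5 to 93.9 CPM in the others and TT10 at 0 in the 5 smaller amounts. Levels below are therefore CPM with TMM factors (TMM CPM), which correct for a few genes that take most reads. The factor was 0.306 at 5 ng and 1.07 to 1.41 in the other libraries. In TMM CPM the embryo markers summed to 243 at 5 ng and 262 to 406 in the other libraries. The endosperm markers summed to 2600 at 5 ng and 1.43 to 27.8 in the others, and the seed coat markers to 183 and 15.4 to 78.1. Dilution alone would keep the proportions between abundant transcripts, which differ here, and whether the 5 ng library holds the same RNA as the others was not tested. The 5 ng and 100 pg libraries were sequenced first, the 100 pg library was sequenced again with the smaller amounts at a later date, and that later run was kept. RNA amount, date and library therefore cannot be told apart between 5 ng and the rest. In bulk RNA, fewer cells of a type and less RNA per cell cannot be told apart either, wherever libraries differ in more than amount.

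Upstream sequence is shown for the 3 members with an evening element before their start (TOC1, PRR5, LUX), the element that CCA1 and LHY bind, and for CCA1 and LHY themselves, which each hold a G-box, the CACGTG sequence bound by bZIP and bHLH factors. All are written 5′ to 3′ on the strand of the gene, from the RefSeq TAIR10.1 assembly, with the motif in capitals and up to 50 bases on each side. In TOC1 and PRR5 the evening element AAAATATCT lies on the opposite strand and therefore reads AGATATTTT.
TOC1, chr5:24674762-24674870, plus strand, element 151 to 143 bases before the start: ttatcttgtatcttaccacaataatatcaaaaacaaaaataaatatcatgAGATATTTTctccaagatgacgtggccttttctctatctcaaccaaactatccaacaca
PRR5, chr5:8358675-8358783, minus strand, element 187 to 179 bases before the start: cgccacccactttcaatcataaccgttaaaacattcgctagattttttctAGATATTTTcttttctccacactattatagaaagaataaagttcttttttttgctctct
LUX, chr3:17182939-17183041, plus strand, element 53 to 45 bases before the start: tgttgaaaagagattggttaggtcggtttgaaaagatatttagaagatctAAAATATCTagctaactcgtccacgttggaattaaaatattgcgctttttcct
CCA1, chr2:19245348-19245453, plus strand, G-box 193 to 188 bases before the start: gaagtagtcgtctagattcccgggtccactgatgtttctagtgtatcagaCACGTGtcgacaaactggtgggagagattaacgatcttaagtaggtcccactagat
LHY, chr1:37896-38001, minus strand, G-box 80 to 75 bases before the start: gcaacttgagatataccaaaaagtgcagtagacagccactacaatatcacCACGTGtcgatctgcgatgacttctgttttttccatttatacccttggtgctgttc

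The motifs were searched on both strands from 250 bases before to 50 bases after the start of each gene. The evening element AAAATATCT was found in 4 of the 10 members (TOC1, LUX, PRR9, PRR5), against 2.82% of 27443 promoters of the same length. The G-box CACGTG was found in 5 members (LHY, CCA1, LUX, PRR9, PRR7), against 7.68%. The CCA1 binding site AAAAATCT was found in PRR5 (7.88% of all promoters), the LUX binding site GATACG or GATTCG in ELF3, ELF4 and PRR9 (14.5%), and the sequence CCACAC of morning genes in LHY and PRR5 (7.77%). LUX and PRR9 held both an evening element and a G-box, and GI held none of the 5 motifs. In PRR9 the evening element starts after the transcription start and is not shown. These are letters in a window, not bound sites, and none of the matches listed overlaps another.

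Most clock genes were detected down to the smallest amount. With at least 1 read pair, 10, 10, 9, 10, 9 and 9 of the 10 members were detected. The shares of all gene models detected were 51.9%, 57.3%, 58.1%, 55.0%, 50.1% and 47.4%. The members that were missed were LHY at 75 pg and PRR9 at 25 and 10 pg. With at least 10 read pairs the numbers were 9, 9, 8, 8, 8 and 7 members, beside 46.4%, 50.7%, 52.2%, 48.0%, 43.0% and 37.4% of all gene models.

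**Figure D1:**
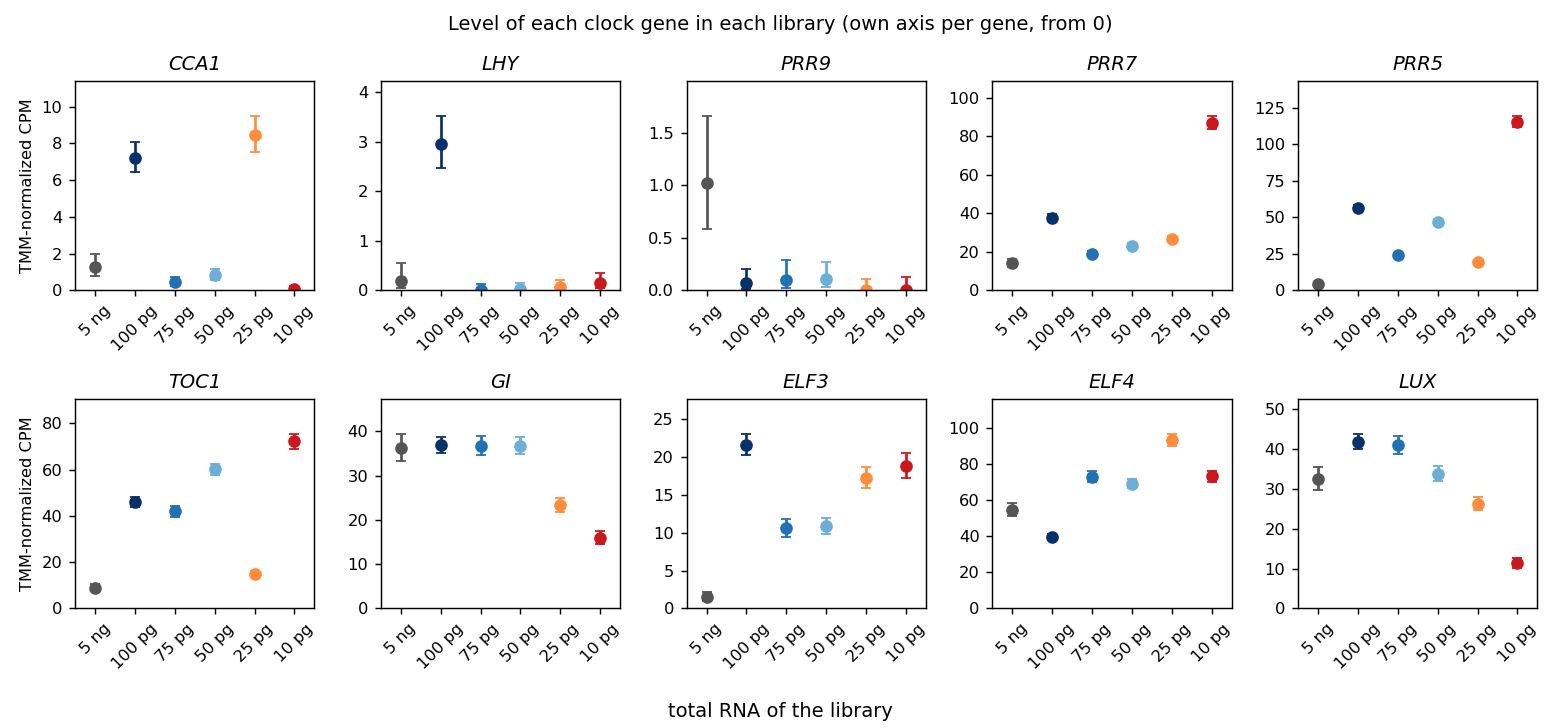
TMM CPM of each of the 10 clock genes (y axis, from 0 and with its own scale for each gene) in the 6 libraries (x axis, total RNA), 1 library per point with its exact Poisson 95% interval, which covers counting error only. CCA1 is high only in the 100 and 25 pg libraries, GI lies between 36.3 and 36.9 from 5 ng to 50 pg on this scale, and PRR7 and PRR5 reach their highest levels, 87.1 and 115 TMM CPM, at 10 pg.

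The dawn genes CCA1 and LHY had uneven levels over the libraries. CCA1 (AT2G46830, chromosome 2, 19245591 to 19248915, plus strand) had 20, 314, 13, 32, 297 and 2 read pairs. These are 1.28, 7.21, 0.430, 0.841, 8.48 and 0.0699 TMM CPM. CCA1 was thus high in the 100 and 25 pg libraries and low in the other 4, with no order by RNA amount. LHY (AT1G01060, chromosome 1, 33365 to 37871, minus strand), the closest relative of CCA1, had 3, 129, 0, 1, 2 and 4 read pairs. Its levels were 0.192, 2.96, 0, 0.0263, 0.0571 and 0.140 TMM CPM, so that 1 library, at 100 pg, carried nearly all LHY reads. At 75 pg the count of 0 allows up to 0.0991 TMM CPM (3 counts). The 25 pg library, high in CCA1, had 2 read pairs of LHY.

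Ratios between libraries are given with exact binomial 95% intervals on the read pairs. The intervals cover counting error only, since pairs copied by PCR are not independent molecules. CCA1 was 5.64-fold higher at 100 pg than at 5 ng (3.59 to 9.36), and LHY 15.4-fold higher (5.17 to 75.8, on 3 read pairs at 5 ng). Against 100 pg, CCA1 was 16.8-fold lower at 75 pg (9.68 to 31.9), and the 50 pg library was 8.58-fold lower (5.95 to 12.8). The 10 pg library was 103-fold lower (28.3 to 856, on 2 read pairs), while at 25 pg the ratio was 1.18 (1.0 to 1.38). LHY was at least 29.9-fold lower at 75 pg than at 100 pg, taking the 3 counts that 0 allows, and the two-sided interval reaches down to 24.0-fold. On 1, 2 and 4 read pairs, LHY was 113-fold lower than at 100 pg in the 50 pg library (19.9 to 4487), 51.9-fold lower in the 25 pg library (14.1 to 433) and 21.2-fold lower in the 10 pg library (8.08 to 79.0). CCA1 and LHY thus went together at 75, 50 and 10 pg, and apart at 25 pg.

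PRR9, PRR7 and PRR5 encode pseudo-response regulators, transcriptional repressors that peak one after the other from morning to afternoon. PRR9 (AT2G46790, chromosome 2, 19232607 to 19235179, plus strand), the earliest of them, had 16, 3, 3, 4, 0 and 0 read pairs. This is 1.02 TMM CPM at 5 ng and at most 0.105 TMM CPM elsewhere, and the counts of 0 allow up to 0.0856 at 25 pg and 0.105 at 10 pg. PRR9 was the only member whose highest level was in the 5 ng library, 14.9-fold above 100 pg (4.25 to 79.6, on 3 read pairs). PRR7 (AT5G02810, chromosome 5, 637681 to 642030, minus strand) had 220, 1638, 575, 882, 929 and 2494 read pairs, or 14.1, 37.6, 19, 23.2, 26.5 and 87.1 TMM CPM. PRR5 (AT5G24470, chromosome 5, 8356204 to 8358546, minus strand) had 72, 2451, 722, 1779, 673 and 3301 read pairs, or 4.61, 56.3, 23.9, 46.8, 19.2 and 115 TMM CPM. Both were lowest at 5 ng and highest at 10 pg. PRR5 was 12.2-fold higher at 100 pg than at 5 ng (9.67 to 15.7) and PRR7 2.67-fold higher (2.32 to 3.09). Against 100 pg, PRR7 was 2.32-fold higher at 10 pg (2.17 to 2.47) and PRR5 2.05-fold higher (1.94 to 2.16). PRR5 was also 2.36-fold lower at 75 pg than at 100 pg (2.17 to 2.57) and 2.93-fold lower at 25 pg (2.69 to 3.20).

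TOC1 and GI are expressed towards the evening. TOC1 (AT5G61380, chromosome 5, 24674963 to 24678550, plus strand), the founding member of the pseudo-response regulators, had 140, 2004, 1268, 2284, 523 and 2065 read pairs. Its levels were 8.96, 46.0, 41.9, 60.0, 14.9 and 72.1 TMM CPM. TOC1 was low at 5 ng and at 25 pg, 5.14-fold below 100 pg in the first (4.33 to 6.14) and 3.08-fold in the second (2.80 to 3.40). GI (AT1G22770, chromosome 1, 8061751 to 8067790, plus strand), a large nuclear protein that stabilizes the F-box protein ZTL, had 567, 1605, 1113, 1396, 815 and 457 read pairs. Its levels were 36.3, 36.9, 36.8, 36.7, 23.3 and 16.0 TMM CPM, nearly the same on this scale in the 4 libraries down to 50 pg and lower in the smallest amounts. By library totals alone its level was 11.1 CPM in the 5 ng library against 52.1 CPM in the 100 pg library. The ratio of 100 pg to 5 ng was 1.02 (0.923 to 1.12) and that of 75 to 100 pg 0.997 (0.923 to 1.08). At 10 pg GI was 2.31-fold lower than at 100 pg (2.08 to 2.57).

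The evening complex brings together ELF3, a scaffold protein, ELF4, a small protein that binds it, and LUX, the GARP transcription factor that binds DNA. ELF3 (AT2G25930, chromosome 2, 11058944 to 11063324, plus strand) had 23, 938, 320, 411, 602 and 537 read pairs. Its levels were 1.47 TMM CPM at 5 ng and 21.5, 10.6, 10.8, 17.2 and 18.8 TMM CPM from 100 to 10 pg, so that the 5 ng library stood below the other 5. The ratio of 100 pg to 5 ng was 14.6 (9.70 to 23.2). ELF4 (AT2G40080, chromosome 2, 16734294 to 16734953, minus strand, a single exon) had 855, 1725, 2208, 2634, 3271 and 2094 read pairs, or 54.7, 39.6, 73.0, 69.2, 93.4 and 73.2 TMM CPM. Among the smaller amounts it was lowest at 100 pg and highest at 25 pg, 2.36-fold apart (2.22 to 2.50). LUX (AT3G46640, named PCL1 in RefSeq, chromosome 3, 17183042 to 17186959, plus strand) had 509, 1821, 1240, 1288, 921 and 328 read pairs. Its levels were 32.6, 41.8, 41.0, 33.9, 26.3 and 11.5 TMM CPM, and at 10 pg it was 3.65-fold lower than at 100 pg (3.24 to 4.12). Among the 5 smaller amounts LUX and GI were both lowest at 10 pg, while ELF4 and ELF3 were not. The reads carry no strand, and 2 members overlap a gene on the opposite strand: ELF3 shares its end with ALPHA-VPE (857 to 2351 read pairs) and also overlaps an antisense RNA, AT2G08135, and LUX overlaps AT3G46650 (0 to 8 read pairs). Reads of ELF3 and of its partners in the shared parts cannot be told apart.

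Levels of single genes were compared with each other per kb of gene model, while the sums of read pairs further below are not divided by length. By this measure ELF4 was the highest member in all 6 libraries. It had 88.4 TMM CPM per kb at 5 ng and a median of 118 per kb over the 5 libraries from 10 to 100 pg (64.0 to 151). LUX followed in 5 of the 6, with 23.6 per kb at 5 ng and a median of 24.5 (8.29 to 30.3). Then came PRR5 with a median of 20.7 per kb (8.51 to 51.1), TOC1 with 17.0 (5.52 to 26.7), PRR7 with 9.37 (6.71 to 30.8), GI with 8.87 (3.86 to 8.91) and ELF3 with 6.47 (3.98 to 8.11). CCA1, with a median of 0.371 per kb, PRR9 with 0.0379 and LHY with 0.0211 were the last 3 in each of the 5 smaller amounts. From LUX to ELF3 each range overlaps that of the next gene, and the same holds from CCA1 to LHY. The ranges run over libraries, and neighbours can still keep their order within each. CCA1 stood above PRR9 in all 6 libraries. The ranges of ELF4 and LUX do not overlap, nor do those of ELF3 and CCA1. They leave out the 5 ng library, where ELF3 had 0.554 per kb, about as low as CCA1 (0.564) and PRR9 (0.563). Detected genes had a median between 6.22 and 9.07 per kb, and the number of members above it was 3, 7, 6, 6, 4 and 4.

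**Figure D2:**
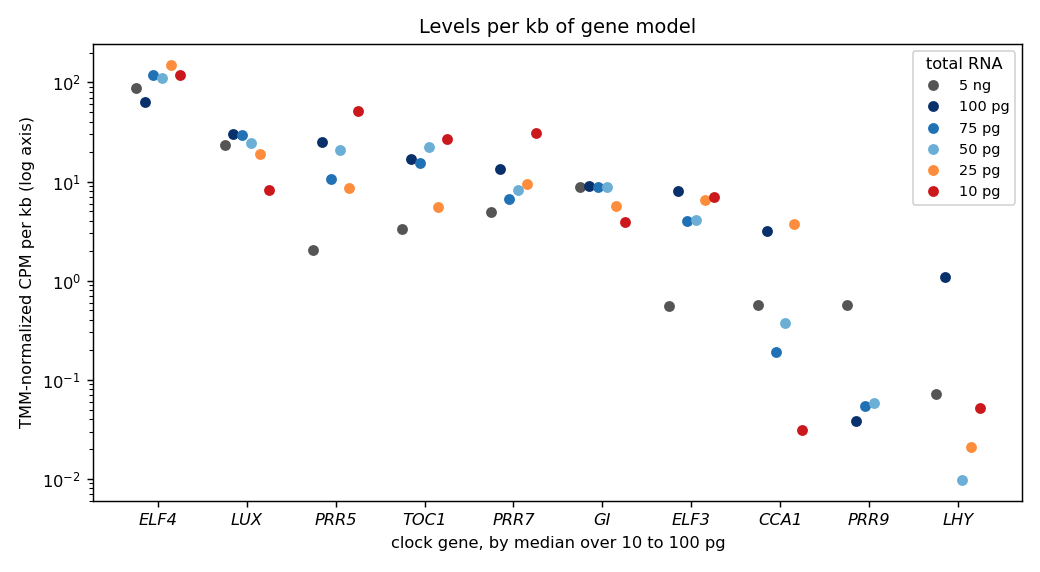
TMM CPM per kb of gene model (y axis, log scale) of the 10 clock genes (x axis, ordered by their median over 10 to 100 pg), 1 point per library and coloured by total RNA, with LHY at 75 pg and PRR9 at 25 and 10 pg left out because their counts are 0. ELF4 is on top in every library, and CCA1, PRR9 and LHY form the lowest 3 in the 5 libraries from 10 to 100 pg.

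The next comparison is between 100 pg, the largest amount of the second date, and 5 ng. A gene was called past 2-fold on log2(TMM CPM + 1), among the 17874 genes with at least 1 TMM CPM in either library. All 10 members passed this filter. LHY, CCA1, TOC1, ELF3, PRR7 and PRR5 were past 2-fold higher at 100 pg, 6 of 10 members against 35.8% of genes. No member was past 2-fold lower, against 29.8% of genes. That count rests on the pseudocount and scaling: PRR9, 14.9-fold lower by its read pairs, had a log2 ratio of -0.92, but -2.73 with a pseudocount of 0.1, -1.01 with DESeq2 size factors and -1.02 without the storage protein genes. The median log2 ratio was 1.55 for the members and 0.19 for all genes, and relative to the latter PRR5 stood at 3.16, ELF3 at 3.0, TOC1 at 2.05, CCA1 at 1.66, LHY at 1.54 and PRR7 at 1.17. GI (0.02), LUX (0.35), ELF4 (-0.46) and PRR9 (-0.92) were not past 2-fold. With a pseudocount of 5, 4 members were past 2-fold higher, and CCA1 (0.96) and LHY (0.62) were not. With the mean of the 100, 75 and 50 pg libraries in place of 100 pg, chosen after seeing the data, 3 members were past 2-fold (TOC1, ELF3 and PRR5). The scaling matters most here: by library totals alone 9 members were higher and 0 lower at 100 pg, beside 72.0% of genes higher and 10.2% lower, and log2 ratios were then 1.69 for ELF4 in place of -0.46, 2.14 for GI and 2.46 for LUX. GI had -0.19 with DESeq2 size factors and -0.15 with TMM factors from genes with at least 10 read pairs in every library. With the 7 storage protein genes left out, 6 members were again higher, with 3.38 for PRR5, 3.26 for ELF3 and 2.25 for TOC1.

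Of the smaller amounts against 100 pg, 9 members passed the filter in each comparison, all but PRR9. At 75 pg no member was past 2-fold higher (15.8% of 17089 genes) and 3 were lower, LHY, CCA1 and PRR5 (15.1% of genes). The median log2 ratio was -0.95 for the members and -0.02 for all genes, with ELF3 at -0.96 and PRR7 at -0.95 just short of 2-fold. At 50 pg none was higher (17.4% of 16885 genes) and 2 were lower, LHY and CCA1 (22.0% of genes), with medians of -0.30 and -0.01. With a pseudocount of 5, LHY was not past 2-fold lower at 75 pg (-0.67) or 50 pg (-0.66). CCA1 still was (-1.17 and -1.06).

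At 25 pg ELF4 was past 2-fold higher (19.3% of 16515 genes) and LHY, TOC1 and PRR5 were lower (30.7% of genes). Here the medians were -0.64 for the members and -0.10 for all genes. By library totals alone, ELF4 had a log2 ratio of 0.99 in place of 1.22 and was not past 2-fold. With the mean of the 100, 75 and 50 pg libraries as the reference, ELF4 (0.62) and LHY (-0.92) were not past 2-fold, while CCA1 was past 2-fold higher (1.31) and TOC1 and PRR5 were lower as before. At 10 pg PRR7 and PRR5 were higher, 2 of 9 members against 23.1% of 16279 genes, and LHY, CCA1, GI and LUX were lower, 4 of 9 against 40.3%. The medians were -0.19 and -0.31, and relative to all genes PRR7 stood at 1.5, PRR5 at 1.33, ELF4 at 1.17, GI at -0.85 and LUX at -1.47. By library totals alone PRR7 had 0.80 and PRR5 0.63, and with TMM factors from genes with at least 10 read pairs in every library 0.96 and 0.79, so that neither was past 2-fold. Against the mean of the 3 libraries LHY had -0.81 and was not past 2-fold lower. In both directions the shares of members at 25 and 10 pg were near those of all genes.

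**Figure D3:**
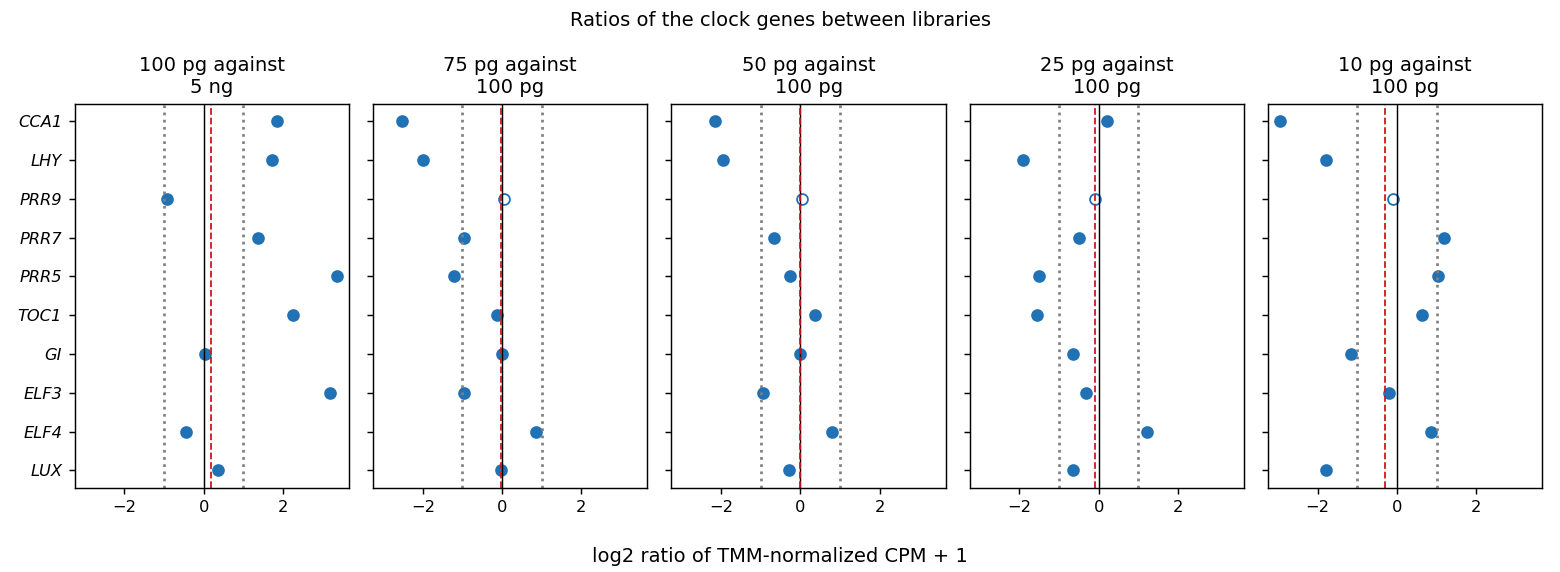
Log2 ratio of TMM CPM + 1 (x axis) of the 10 clock genes (y axis) in 5 comparisons of single libraries, with a dashed line at the median of all genes, dotted lines at 2-fold and an open circle where a gene had under 1 TMM CPM in both libraries. In the first panel 6 genes lie beyond 2-fold higher at 100 pg than at 5 ng. In the panels against 100 pg LHY is beyond 2-fold lower in all 4 and CCA1 in all but 25 pg. The 4 LHY ratios share the 100 pg library, and with a pseudocount of 5 they were -0.67, -0.66, -0.66 and -0.63 from 75 to 10 pg.

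The balance of dawn and evening genes was taken within each library, where scaling plays no part, as the log2 ratio of the read pairs of CCA1 and LHY to those of TOC1, GI, ELF4 and LUX. Read pairs of evening genes outnumbered those of dawn genes in every library, with 4 genes against 2 and no correction for length. At 100 pg there were 443 dawn and 7155 evening read pairs (-4.01) and at 25 pg 299 and 5530 (-4.21). In the 5 ng library the balance was -6.49 (23 and 2071 read pairs). The lowest values were -7.85 with 50 pg (33 and 7602), -8.81 with 75 pg (13 and 5829) and -9.69 with 10 pg (6 and 4944). The dawn genes thus made up 5.83% of these pairs at 100 pg and 5.13% at 25 pg, but 1.1% at 5 ng and between 0.121% and 0.432% at 75, 50 and 10 pg. The counting intervals at 100 pg (-4.16 to -3.87) and at 10 pg (-11.1 to -8.56) are far apart. With each member given the same weight on log2(TMM CPM + 1), the balance was -2.88 at 100 pg and -4.89 at 10 pg. The 75 pg library was then the lowest (-5.31). The pseudocount enters here as well, so these values do not show the weighting alone. The spread between libraries of 1 amount was not measured.

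**Figure D4:**
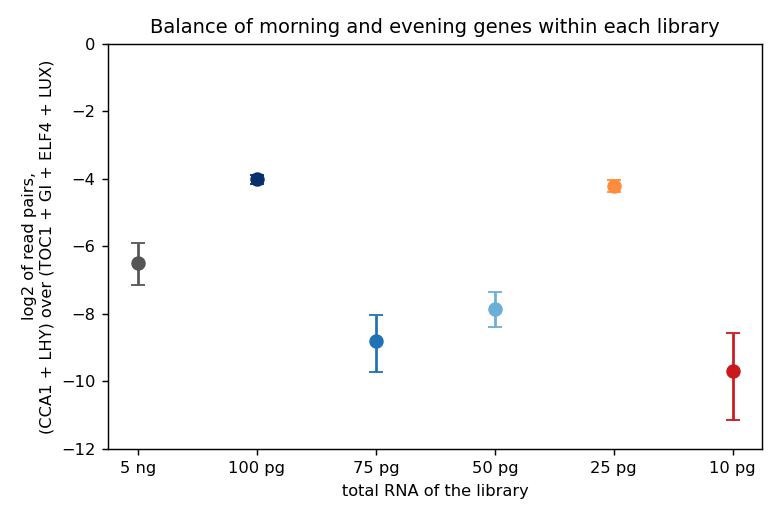
Log2 ratio of the read pairs of CCA1 and LHY to those of TOC1, GI, ELF4 and LUX (y axis) in the 6 libraries (x axis, total RNA), with exact binomial 95% intervals that cover counting error only. All 6 values are below 0, with 100 pg (-4.01) and 25 pg (-4.21) well above the other 4 libraries.

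A second ratio within libraries, chosen after the values were seen, set PRR5 and PRR7, highest at 10 pg, against GI and LUX, the lowest there among the smaller amounts. Per read pair of GI and LUX there were 0.271 read pairs of PRR5 and PRR7 at 5 ng (0.238 to 0.309) and 1.19 at 100 pg (1.14 to 1.25). The 75, 50 and 25 pg libraries had 0.551 (0.515 to 0.590), 0.991 (0.939 to 1.05) and 0.923 (0.862 to 0.988), and the 10 pg library 7.38 (6.85 to 7.96). The high value at 10 pg follows from the choice of these 4 genes.

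How much a member varied over the 5 libraries from 10 to 100 pg was measured by the SD of log2(TMM CPM + 1). ELF3 varied least with an SD of 0.44, next to ELF4 with 0.45 and GI with 0.52. LUX (0.74), PRR7 (0.84), TOC1 (0.85) and PRR5 (1.01) varied more and CCA1 most (1.48). The median was 0.79 for these 8 members and 0.99 for the 16390 genes with a mean of at least 1 TMM CPM. LHY and PRR9 were under that mean. Without the 10 pg library the members' median was 0.49, with LUX at 0.30, GI at 0.32 and PRR7 at 0.40. The median of all genes was not taken without that library, and members and all genes were not matched for level. Without the 25 pg library TOC1 had an SD of 0.35, under those of ELF3 (0.50) and ELF4 (0.42).

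Some members had alike profiles over the 6 libraries, given here as Pearson correlations of log2(TMM CPM + 1) that share scaling and libraries and serve only as a description. GI and LUX were the most alike (r = 0.95, and 0.96 without 5 ng), followed by TOC1 and PRR5 (0.92, and 0.81 without 5 ng) and by PRR7 and PRR5 (0.86 both ways). ELF3 and PRR5 reached 0.84, but 0.42 without the 5 ng library, so that this likeness rests on 1 library. CCA1 and LHY, in spite of their kinship, reached 0.55. LHY and ELF4 were opposed (-0.85, and -0.92 without 5 ng), with nearly all LHY read pairs in the 100 pg library. ELF3 and PRR9 were opposed as well (-0.97, and -0.68 without 5 ng), with most PRR9 read pairs in the 5 ng library. Among the 11006 genes with a mean of at least 10 TMM CPM, the profiles closest to that of CCA1 were AT1G29880 (r = 0.99), AT3G55020 (0.98) and IAR3 (AT1G51760, 0.98). Those closest to ELF4 were SKIP5 (AT3G54480, 0.99), AT3G05810 (0.99) and AT5G47890 (0.98). Without the 5 ng library their r was 0.98 or 0.99, but none of these 6 genes was then among the 3 closest. Of the 11006 genes, 44 were above 0.9 with CCA1 and 66 with ELF4. The named genes are thus the first of longer lists, drawn from only 6 libraries.

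The other genes of the clock were read from 4 lists of 51 genes in all. At 100 pg against 5 ng all 51 passed the filter, 13 past 2-fold higher and 21 lower, with a median log2 ratio of -0.01. Of all genes 35.8% were higher and 29.8% lower. The 10 core members had 6 higher and 0 lower with a median of 1.55. PRR9 was just short of 2-fold lower with the pseudocount of 1, but 14.9-fold lower without it (4.25 to 79.6, on 3 read pairs). These counts and medians rest on the TMM factors, 0.306 at 5 ng and 1.41 at 100 pg. No other scaling was run for the lists. By library totals alone 72.0% of all genes were higher and 10.2% lower. The RVE and LNK genes, MYB factors related to CCA1 and their coactivators, had 1 higher and 7 lower of 12 (median -1.69). RVE7 (AT1G18330), also called EARLY-PHYTOCHROME-RESPONSIVE1, had 16.2 TMM CPM at 5 ng and 0.368 at 100 pg. LNK1 had 22.1 TMM CPM at 5 ng, 32.4, 9.61, 20.9 and 20.1 from 100 to 25 pg, and 0.140 at 10 pg. LNK2 had 19.4 TMM CPM at 5 ng, 18.9 at 100 pg and 2.66 at 10 pg, so that both LNK genes were low in the smallest amount.

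Homologues of the members had 0 higher and 4 lower of 6 at 100 pg against 5 ng (median -1.90). EFL3, a relative of ELF4, had 86.6 TMM CPM at 5 ng, 14.4 to 23.2 from 100 to 25 pg and 0 read pairs at 10 pg. EFL2 was at 38.8 TMM CPM at 5 ng and 5.86 at 100 pg. EFL4 was instead highest at 10 pg, with 68.4 TMM CPM against 13.3 to 26.8 in the other 5. PRR3, which protects TOC1 from breakdown, had 13.2 TMM CPM at 5 ng, 25.0 at 100 pg and 3.67 at 10 pg, unlike PRR5 and PRR7, which were highest at 10 pg.

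Factors associated with the clock had 4 higher and 5 lower of 19 (median 0.09). PRMT5, an arginine methyltransferase that acts on splicing, had 3.84 TMM CPM at 5 ng and 21.9 to 59.9 in the others. TIC, a nuclear clock regulator, had 130 TMM CPM at 5 ng and 57.7 at 100 pg. LKP2, an F-box relative of ZTL, had 50.3 TMM CPM at 5 ng, 11.2 at 100 pg, 29.1 at 25 pg and 0.105 at 10 pg. CKB3, a regulatory subunit of the kinase CK2, had 57.5, 47.6 and 116 TMM CPM at 5 ng, 100 pg and 10 pg. PRMT5 and LKP2 were named for the highest and the lowest ratio of 100 pg to 5 ng among the genes of this list with at least 10 TMM CPM in either library. Their opposite directions follow from that choice.

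Clock output genes had 8 higher and 5 lower of 14 (median 1.43). The RNA-binding protein gene GRP7, whose transcript oscillates under the clock, had 227, 2245, 2497, 3198, 2999.7 and 3839 TMM CPM. Its close relative GRP8 had 41.8 TMM CPM at 5 ng and 222 to 417 in the others. PIF4, a bHLH transcription factor that promotes growth and is repressed by the evening complex, had 0.320 TMM CPM at 5 ng and 3.71 to 25.7 below. The CONSTANS relative COL1 had 14.7 TMM CPM at 5 ng, 2.55 at 100 pg and 0 read pairs at 25 pg. At 10 pg against 100 pg, 44 of the 51 genes passed the filter, 5 were higher and 24 lower, and the median was -1.34. Of the 9 RVE and LNK genes that passed there, 8 were lower and none higher, beside 40.3% of all genes lower and 23.1% higher.

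**Figure D5:**
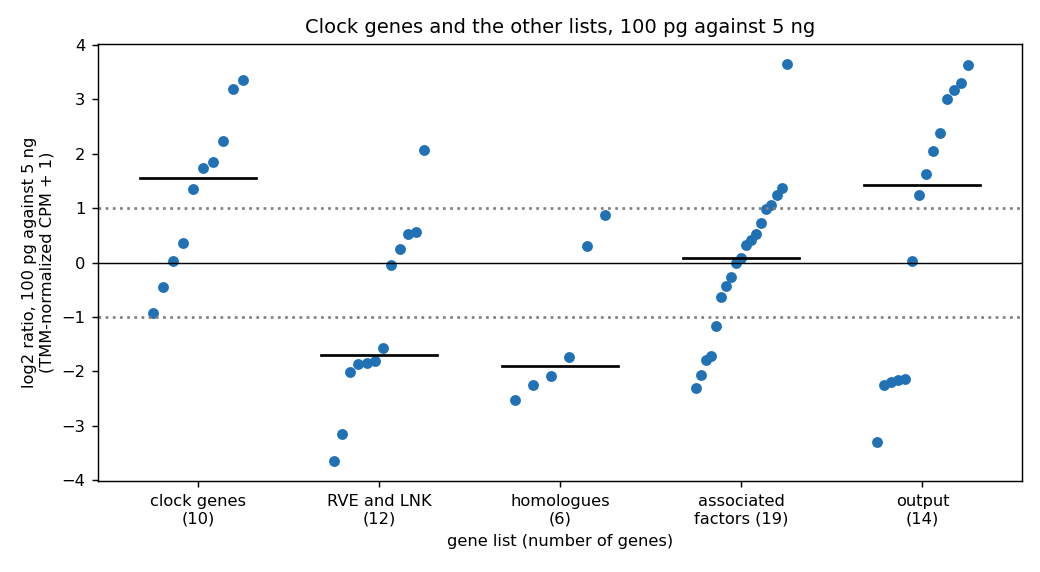
Log2 ratio of TMM CPM + 1 at 100 pg against 5 ng (y axis) for the 10 clock genes and 4 lists of other clock genes (x axis, number of genes in brackets), 1 point per gene with the median as a bar and dotted lines at 2-fold. The median is 1.55 for the 10 clock genes, -1.69 for the RVE and LNK genes, -1.90 for homologues, 0.09 for associated factors and 1.43 for output genes. All ratios use TMM factors, and the lists were not run with other scaling.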

How the data were processed

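The deposited values are raw counts of read pairs per TAIR10 representative gene model. Before counting, the authors removed low-quality ends and ribosomal reads and ran Bowtie2 with local alignment, and a pair was kept where both mates fell in 1 gene only. TopHat2 also stands in the submitters' processing notes. Pairs counted were 80.33 to 95.85% of those sequenced. TMM factors came from edgeR 4.0.16 in R 4.3.3, size factors for an alternative from DESeq2 1.42.0, and intervals from SciPy 1.17.1 under Python 3.11.15. Tables were made with pandas 2.3.3 and NumPy 2.4.6 and plots with matplotlib 3.10.9. The log2 ratio was tried on simulated counts that hold Poisson error only. With 1 library per amount, no test was made. The sequencing date effect that the study removed was not removed here. Log2 values used a pseudocount of 1. The members and lists were chosen with earlier results of these data known. All members were named, and of each other list the 2 with the highest mean level and those of at least 10 TMM CPM in either library with the highest and the lowest ratio of 100 pg to 5 ng. For CCA1 and ELF4, the dawn and the evening member with the highest mean level, the 3 closest profiles were also named. All 10 members matched RefSeq TAIR10.1, from which coordinates and sequences come. Of the 51 other genes, 43 matched by symbol or synonym and the rest by locus only.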

Additional observations from a re-analysis of the deposited data

How the results depend on the processing

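Counts of members detected or past 2-fold, the balances and the median spread were taken under other settings. Of these values 82 stayed within 1.5 times the main value or, for balances, within the counting interval, and 24 did not. Only a balance could change sign, and none did, all being well below 0. The cause of the moves was not tested. At 100 pg against 5 ng, 1 member, PRR9, was lower with DESeq2 size factors, without the 7 storage protein genes, with TMM factors from genes with at least 10 read pairs in every library and with a pseudocount of 0.1, and 3 were higher with the mean of the 100, 75 and 50 pg libraries. By library totals alone 5 were lower at 75 pg, and 0 were higher at 25 pg and at 10 pg, against 100 pg. The filtered TMM factors also gave 0 higher at 10 pg. A pseudocount of 5 gave 1 lower at 50 pg, and 1 higher and 2 lower at 10 pg. Giving each member the same weight on log2(TMM CPM + 1) moved the balance most. From 5 ng to 10 pg the balance was then -4.13, -2.88, -5.31, -5.15, -3.32 and -4.89. This setting also adds the pseudocount, and weighting and pseudocount were not changed separately. Without GI it was -3.65 at 100 pg and -3.98 at 25 pg. Without LHY, an alternative chosen after seeing the data, it was -4.51 at 100 pg and -11.27 at 10 pg. With PRR9 among the dawn genes it was -5.73 at 5 ng. In each of these the 100 and 25 pg libraries had the highest balance. The members' median spread was 0.49 without the 10 pg library. No paired analysis was possible because each amount has 1 library. Counts limit LHY and PRR9 most, with 4 or fewer read pairs in 5 libraries each. Levels of at least 10 TMM CPM from single reads were 0.951 to 1.08 times those from read pairs.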
